A study of Homo sapiens with 39 samples.

Results

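Chaperones are proteins that bind other proteins while these fold, refold or assemble. The genes described here are 43 cytosolic and mitochondrial chaperone genes, chosen by name, and all 43 were found among the 21530 gene symbols of the polysome gradient table and the 26334 symbols of the RNA immunoprecipitation tables. By role they are 9 genes of HSP70 and the factors that act on it, 5 J-proteins, 9 genes of HSP90 and its co-chaperones, 8 subunits of the TRiC chaperonin, 6 subunits of prefoldin, 4 mitochondrial chaperones, the small heat shock protein HSPB1 and the transcription factor HSF1. HSP70 binds exposed hydrophobic stretches in a cycle of ATP hydrolysis that J-proteins start and nucleotide exchange factors end. HSP90 acts later on kinases, receptors and other clients together with co-chaperones. Prefoldin captures actin and tubulin chains and hands them to TRiC, a double ring that encloses a client while it folds, and HSF1 drives transcription of many of these genes in stressed cells.

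The study asked whether U2AF1, the subunit of the U2AF splicing factor that contacts the AG at the end of an intron, also acts on mRNAs in the cytoplasm. Human bronchial epithelial cells (HBEC) were used as 3 lines: wild-type U2AF1 (WT), the U2AF1 S34F mutation (S34F) and a line labelled Frame Shift (FS), whose shifted allele is not named in the sources used here. Each line gave 1 sucrose gradient of 8 RNA-seq libraries, from monosomes (1 ribosome per mRNA), from each of 2 to 7 ribosomes and from a pool of 8 to 10. It also gave 1 library each of cytosolic RNA (Cytosol), control immunoglobulin precipitate (IgG) and U2AF1 precipitate (IP). PAR-CLIP reads out where a protein touches RNA, since a crosslinked thiouridine is read as C instead of T. It used Flp-In-293, a line derived from the embryonic kidney line HEK 293, expressing U2AF1 with a FLAG-HA tag. It was run on cytoplasm with WT or S34F protein and on chromatin with WT protein, and the authors pooled the 2 replicates of each into 1 list of clusters. No stress or drug treatment is labelled in any group, and whether a line is 1 clone is not given in the sources used here.

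Libraries held 2440145 to 13367574 counts in the gradients and 2582141 to 29769968 in the immunoprecipitation series, so a count of 0 allows up to 0.224 to 1.23 and 0.101 to 1.16 CPM, counts per 1000000 counts of the library. These limits cover counting error only. Of 8 basal airway markers 7 reached 1 CPM in all 3 Cytosol libraries, and the 8 had a summed level of 21459 to 30967 CPM. The exception, KRT14, stood at 0.0158 CPM in WT, 27.2 in S34F and 29.3 in FS Cytosol, but at 137 to 1214 CPM over the gradient libraries. In Cytosol mesenchymal markers summed to 7.24 to 11.1 CPM, and endothelial, immune and differentiated airway markers each to at most 1.58 CPM. The gradients differed: LYZ, an immune marker that was at most 0.285 CPM in Cytosol, reached 198 CPM there (median 57.5), and the endothelial marker PECAM1 reached 27.8 CPM (median 8.13). Values below that give 3 numbers are in the order WT, S34F, FS. Cytosol levels of U2AF1 mRNA were 53.9, 21.4 and 54.7 CPM. CPM sets every library to the same total, so the amount of RNA in a fraction is lost, and in these bulk samples fewer cells of a type and less RNA per cell cannot be told apart.

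In Cytosol, by the median over lines of the level per length of transcript, HSPB1 ranked highest and HSPH1 lowest. HSPB1, which holds unfolded proteins in large oligomers, stood at 181, 812 and 316 CPM per kilobase. CCT7, a TRiC subunit, stood at 203, 174 and 195 CPM per kilobase, and HSP90AB1, the constitutive cytosolic HSP90, at 192, 191 and 156. The inducible HSP90AA1 stood far lower, at 8.20, 8.31 and 13.9 CPM per kilobase. HSPH1, an HSP70 nucleotide exchange factor of the HSP110 family, had the lowest median, at 1.88, 2.22 and 0.416 CPM per kilobase, although PPID was lower in WT (1.30, 4.16 and 2.38). HSPA8, the constitutive HSP70, stood at 110, 88.0 and 105 CPM per kilobase. HSPA1A and HSPA1B, the stress-inducible HSP70 pair, stood at 75.5, 92.3 and 74.5 and at 75.8, 92.2 and 74.1. Their coding sequences are nearly identical, so how reads were split between these copies is uncertain here and below.

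Most chaperone mRNAs were more abundant in the 8-10 ribosome fraction than in monosomes, as a share of each library. By edgeR's quasi-likelihood test with Benjamini-Hochberg adjustment over 15945 genes, 31 of 43 members were higher in the heavy fraction and 0 lower, where 28.3% of all genes tested were higher and 21.6% lower. An unadjusted p under 0.05 was reached by 32 members and by 9056 of the 15945 genes. DESeq2 also called 31 members higher and 0 lower. The median log2 fold of the members was 1.38, against 0.075 over all genes tested. All 8 TRiC mRNAs, all 4 mitochondrial ones, 5 of 6 prefoldin, 7 of 9 in the HSP90 group and 4 of 5 J-protein mRNAs rose, but only 2 of 9 in the HSP70 group. In 21 members (48.8%) every heavy library lay above every monosome library, against 21.1% of all genes. Marker lists also differed between these fractions. The 5 immune markers summed to 111 to 151 CPM in monosomes and 20.7 to 38.4 CPM in the 8-10 fraction, nearly all from LYZ (104, 146 and 143 CPM, then 35.3, 20.2 and 32.6 CPM). The 4 endothelial markers summed to 18.9 to 25.5 and 4.01 to 7.57 CPM, and the 8 basal markers to 7933 to 13444 and 13359 to 14387 CPM. Their part in the members' folds was not tested. Among the calls 22 of 31 were kept in every alternative fit tried, and 26 members were called without FS, 26 without S34F and 28 without WT. Here and below, shares of all genes were computed for the main settings only, not for alternative fits or scalings.

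**Figure D1:**
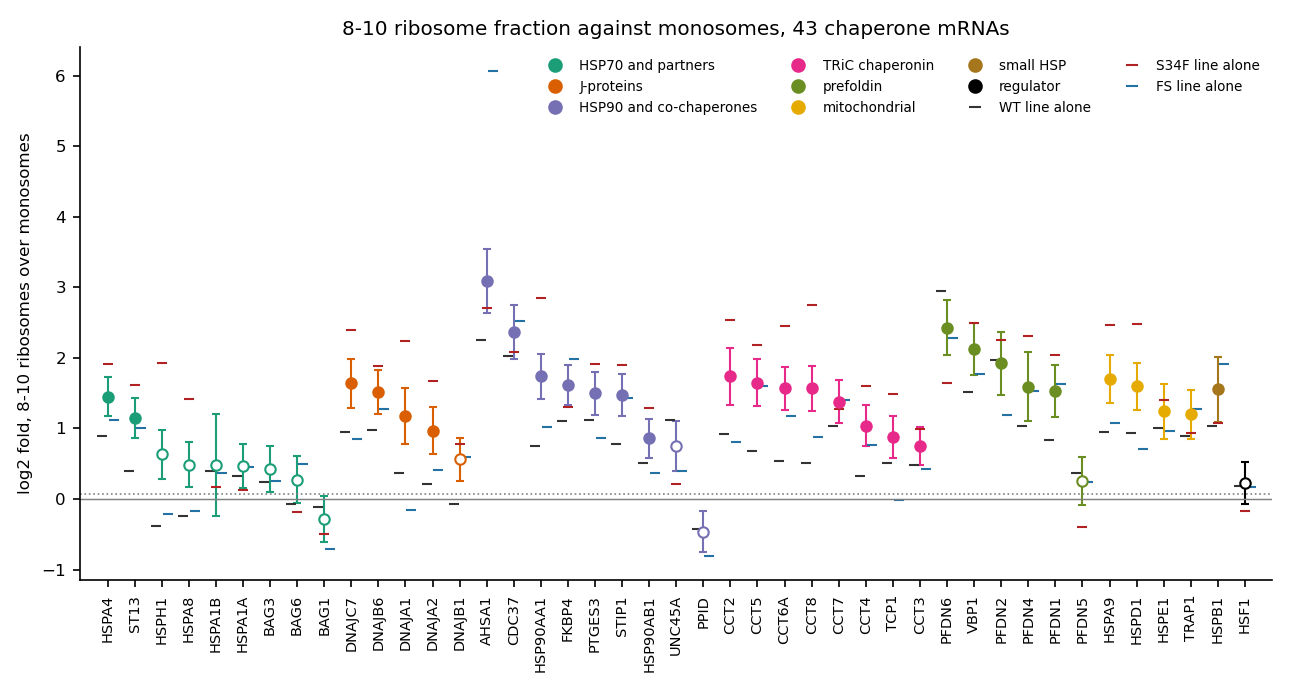
Log2 fold of the 8-10 ribosome fraction over monosomes for each member, grouped by role. Circles with bars are the fitted fold and its standard error from the fit to all gradient libraries. The bars do not show the spread over the 3 lines. Circles are filled where the adjusted p was under 0.05. Short dashes are the single lines, and the dotted line is the median of all genes tested (0.075). TRiC, prefoldin and mitochondrial members lie mostly between 1 and 2.5, HSP70 members mostly below 1, and the FS dash of AHSA1 rests on a monosome level of 3 counts.

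AHSA1, the co-chaperone that speeds up the ATPase of HSP90, had the largest fold of the members. It stood at 12.2, 10.5 and 0.911 CPM in monosomes and at 58.3, 68.4 and 60.9 CPM in the 8-10 fraction. The fitted log2 fold was 3.09 ± 0.46 (adjusted p = 3.5e-05), with the 3 lines as replicates. Here and below, ± gives the standard error of the fit to all gradient or all precipitate and Cytosol libraries. It is not the spread between the 3 lines, whose AHSA1 folds were 2.26, 2.70 and 6.06. The FS monosome value is the level of 3 counts, and the fold stayed called without that line. CDC37, which brings kinases to HSP90, rose from 47.8, 31.0 and 31.5 CPM to 195, 131 and 181 CPM (2.36 ± 0.39, adjusted p = 7.3e-05). Neither gene had overlapping groups. FKBP4, a peptidyl-prolyl isomerase of steroid receptor complexes, rose from 52.8, 41.9 and 34.9 to 114, 103 and 137 CPM (1.61 ± 0.29, adjusted p = 0.00014). HSP90AA1 rose by 1.74 ± 0.31, from 34.8, 47.0 and 86.3 to 58.4, 338 and 174 CPM (adjusted p = 0.00016). Its groups overlapped, since the WT heavy library lay below the FS monosome library, but each line rose. HSP90AB1 stood at 185, 277 and 428 CPM in monosomes and 265, 674 and 550 CPM in the heavy fraction. That was a fold of 0.86 ± 0.28 (adjusted p = 0.0128), a call that was lost without S34F (adjusted p = 0.108) and without the line block (0.19). STIP1, the adaptor that joins HSP70 to HSP90, and PTGES3, the p23 co-chaperone, rose by 1.47 ± 0.29 and 1.497 ± 0.31. PPID, the cyclophilin co-chaperone, was 1 of 2 members with a fitted value below 0, at -0.46 ± 0.29 (adjusted p = 0.189). Its monosome levels were 30.1, 46.3 and 48.9 CPM against 22.3, 32.9 and 27.9 CPM in the heavy fraction.

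TRiC subunits make up a ring in which each protein is present once per ring, and all 8 mRNAs were called higher. Folds ran from 0.75 for CCT3 (adjusted p = 0.024) to 1.74 for CCT2 (adjusted p = 0.00118), with a median of 1.47. CCT2 rose from 14.0, 19.8 and 29.9 CPM to 26.5, 115 and 52.3 CPM. CCT5 rose from 38.3, 46.9 and 48.6 CPM to 61.4, 214 and 147 CPM (1.65 ± 0.33, adjusted p = 0.00038), without overlap between the groups. CCT7 rose from 108, 105 and 93.3 to 222, 256 and 246 CPM (1.38 ± 0.31, adjusted p = 0.00088) and was higher in each line. In the other 7 TRiC members the ratio was largest in S34F, as in CCT8, which rose from 26.3, 28.2 and 65.5 to 37.3, 189 and 121 CPM (1.57 ± 0.32). Calls for CCT3, CCT4 and TCP1 were lost without S34F (adjusted p = 0.0852, 0.05 and 0.214) and without the line block (0.107, 0.101 and 0.254). CCT3 was also lost without FS (0.0691) and without WT (0.0963), and TCP1 without WT (0.0874) and with only the libraries compared in the fit (0.064). TCP1 stood at 74.0 CPM in FS monosomes and 73.0 CPM in the FS heavy fraction.

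Prefoldin members PFDN6, VBP1 and PFDN2 had folds of 2.43 ± 0.40, 2.13 ± 0.37 and 1.92 ± 0.45, and PFDN4 and PFDN1 rose by 1.59 ± 0.49 and 1.53 ± 0.37. PFDN6 stood at 1.57, 4.69 and 2.13 CPM in monosomes and at 12.1, 14.6 and 10.3 CPM in the heavy fraction (adjusted p = 7.3e-05). VBP1 rose from 8.72, 9.49 and 14.0 CPM to 24.9, 53.6 and 47.6 CPM (adjusted p = 0.00011). In both, every heavy library lay above every monosome library. PFDN5 was the only prefoldin member not called, at 74.0, 133 and 72.0 CPM against 95.3, 101 and 85.0 CPM (0.26 ± 0.34, adjusted p = 0.53).

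Among mitochondrial members, HSPA9, the HSP70 of the matrix that also pulls in precursors, rose from 78.6, 66.0 and 92.5 to 152, 364 and 196 CPM (1.70 ± 0.34, adjusted p = 0.00037). HSPD1, the chaperonin HSP60, rose from 22.3, 31.4 and 48.1 to 42.7, 176 and 78.5 CPM (1.60 ± 0.33, adjusted p = 0.00051). HSPE1, its lid HSP10, rose by 1.24 ± 0.39 and TRAP1, the mitochondrial HSP90, by 1.20 ± 0.35, calls that were lost without FS (adjusted p = 0.0588 and 0.0514), the first also without the line block (0.058). HSPB1 rose from 91.8, 186 and 108 to 189, 392 and 407 CPM (1.56 ± 0.46, adjusted p = 0.00759), a call that was lost without FS (0.0547) and without the line block (0.0834).

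In the HSP70 group HSPA4 and ST13 were the called members. HSPA4, an exchange factor of the HSP110 family, rose from 50.3, 57.7 and 79.2 to 93.3, 218 and 172 CPM (1.45 ± 0.28, adjusted p = 0.00026). ST13, which slows the release of clients from HSP70, rose by 1.15 ± 0.29 (adjusted p = 0.00221). HSPA8 stood at 126, 210 and 413 CPM in monosomes and at 107, 558 and 367 CPM in the heavy fraction, so the heavy fraction was the lower one in WT and FS and the higher one in S34F (0.49 ± 0.32, adjusted p = 0.2). HSPA1A and HSPA1B had 0.47 ± 0.32 and 0.48 ± 0.73. The wide error of HSPA1B goes with an isolated value of 0 in the FS library of 3 ribosomes, where HSPA1A stood at 55.2 CPM. BAG1 and BAG3, whose BAG domain opens HSP70, had -0.28 and 0.43, and BAG6 had 0.28, none of them called. Of the J-proteins, DNAJC7 rose from 9.54, 8.66 and 14.3 to 18.4, 45.7 and 26.0 CPM (1.64 ± 0.35) and DNAJB6 from 40.2, 27.8 and 37.5 to 78.7, 103 and 91.2 CPM (1.51 ± 0.31). DNAJA1 and DNAJA2 rose by 1.17 ± 0.40 and 0.97 ± 0.33, calls that were lost without S34F (adjusted p = 0.49 and 0.188) and without the line block (0.124 and 0.181). DNAJA1 was also lost without WT (0.058) and with only the libraries compared in the fit (0.0968), and DNAJA2 without FS (0.0565). DNAJB1, the inducible HSP40, had 0.56 ± 0.30 (adjusted p = 0.124).

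In S34F the median member was 1.64 log2 higher in the 8-10 fraction than in monosomes, against 0.75 in WT and 0.86 in FS, while the median over all genes was 0.105, -0.17 and -0.15 in S34F, WT and FS. Against the fraction of 7 ribosomes the median member stood 0.79, 1.49 and 0.79 higher in WT, S34F and FS, where all genes had 0.40, -0.06 and -0.20. The part of this S34F library alone in the folds was not tested. A fit without all libraries of the S34F line called 26 members, among them UNC45A, which was not called with all lines. Of 59 other tested chaperone and folding genes 34 were higher, among them the HSP90-bound phosphatase PPP5C (2.50 ± 0.33, adjusted p = 1.3e-05), and 1 was lower, the J-protein DNAJC21 (-1.70 ± 0.39, adjusted p = 0.00116), with a median of 1.00. All 31 proteasome mRNAs were higher (median 1.85), as were 12 of 13 tested for folding in the endoplasmic reticulum (median 1.71).

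**Figure D2:**
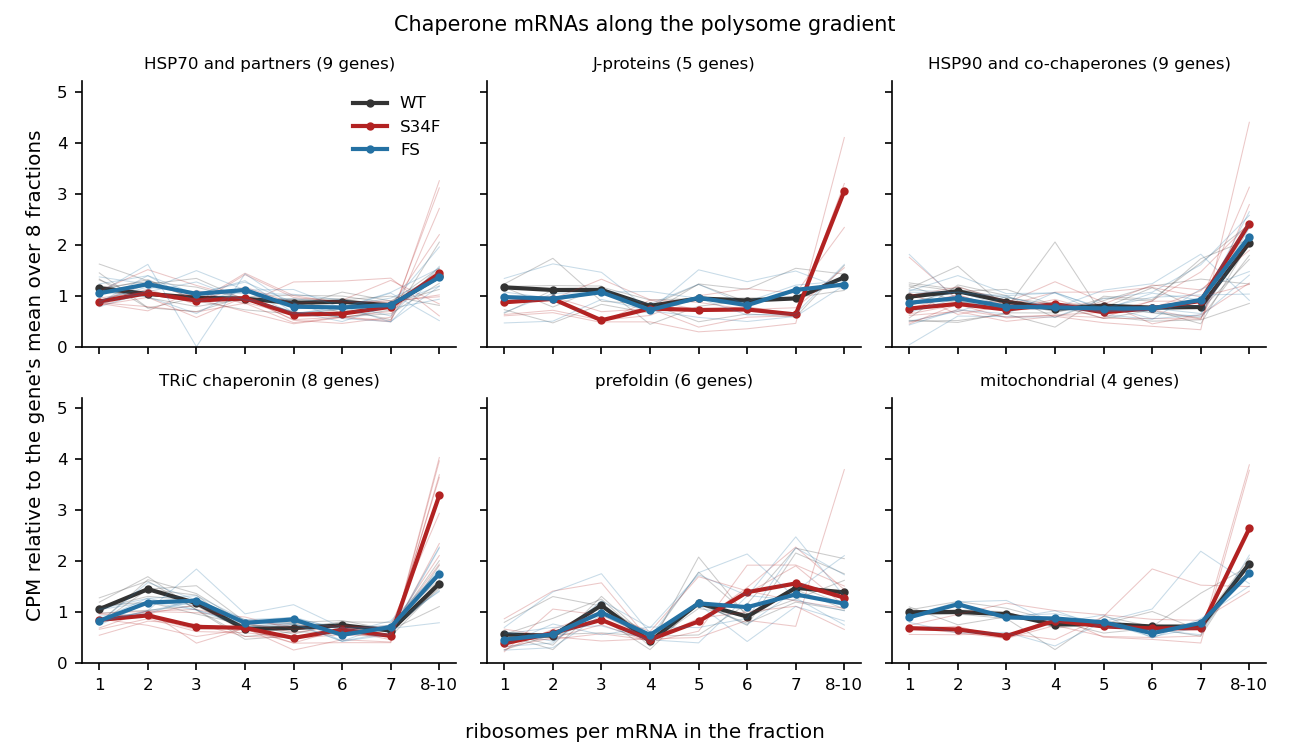
CPM of each member divided by its own mean over the 8 fractions of a gradient, against the number of ribosomes. Thin lines are single genes, thick lines with points are medians of a role in WT (black), S34F (red) and FS (blue). TRiC is low at 4 to 7 ribosomes and highest at 8-10, prefoldin is low at 1, 2 and 4 ribosomes and highest at 7, and S34F has the highest TRiC value at 8-10 (3.30 times the gene's mean, against 1.57 in WT and 1.76 in FS).

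Within the polysomes the calls for TRiC and prefoldin mRNAs had opposite directions. Between 6-7 and 2-3 ribosomes 6 of 8 TRiC members fell and 0 rose, with a median of -0.72 and all 8 fitted values below 0. Of 6 prefoldin members 4 rose and 0 fell, with a median of 0.98. Over all members 9 rose and 13 fell, where 20.8% of 15945 genes rose and 12.8% fell, and the median of all genes was -0.04. The counts depended on the lines: without FS 6 rose and 5 fell, without S34F 6 and 15, and without WT 6 and 6. Without line as a block 8 rose and 2 fell. Calls kept in every alternative fit were 4 of 22, which were CCT5, DNAJB6, PFDN2 and PFDN6.

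CCT3 spanned 114 to 204 CPM (median 123) over the 6 libraries of 2-3 ribosomes and 55.2 to 104 CPM (median 78.1) over those of 6-7, without overlap (-0.79 ± 0.19, adjusted p = 0.00288). CCT7 went from 114 to 139 CPM (median 121.5) down to 47.0 to 89.7 CPM (median 77.9), also without overlap (-0.65 ± 0.22, adjusted p = 0.0227). CCT2 and CCT5 fell by 0.94 ± 0.28 and 0.93 ± 0.23. CCT4 and CCT6A had -0.50 ± 0.21 and -0.41 ± 0.21 and were not called. Both HSP90 genes fell as well, HSP90AB1 at -0.78 ± 0.20 (adjusted p = 0.00371), from a median of 286 to 151 CPM, and HSP90AA1 at -0.73 ± 0.22. In the HSP70 group HSPA4, HSPH1, BAG3 and ST13 fell, by 0.56 to 0.78 on the log2 scale, and DNAJA1 fell most of all members (-1.05 ± 0.30, adjusted p = 0.0086).

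PFDN6 rose from a median of 4.05 CPM (3.32 to 5.88) to 13.4 CPM (5.24 to 23.0), a fold of 1.59 ± 0.27 (adjusted p = 7.8e-05). PFDN2 rose from 12.2 CPM (9.20 to 32.6) to 35.2 CPM (18.6 to 79.4), a fold of 1.46 ± 0.31 (adjusted p = 0.00079). Groups of both genes overlapped. PFDN4 and PFDN1 rose by 1.10 ± 0.33 and 0.86 ± 0.26, while PFDN5, the subunit that also binds MYC, had -0.51 ± 0.24 (adjusted p = 0.107). Co-chaperones that rose here were AHSA1 (12.5 to 15.8 CPM at 2-3 ribosomes, 19.5 to 40.1 at 6-7, 1.01 ± 0.30), CDC37 (0.84 ± 0.26) and PTGES3 (0.68 ± 0.21). HSPE1 (1.21 ± 0.28) and DNAJB6 (1.05 ± 0.22) rose as well. AHSA1 and CDC37 were the only members whose 6-7 libraries all lay above their 2-3 libraries, 4.7% of members against 4.13% of all genes, and CCT3 and CCT7 the only ones with all of them below (1.12% of genes).

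**Figure D3:**
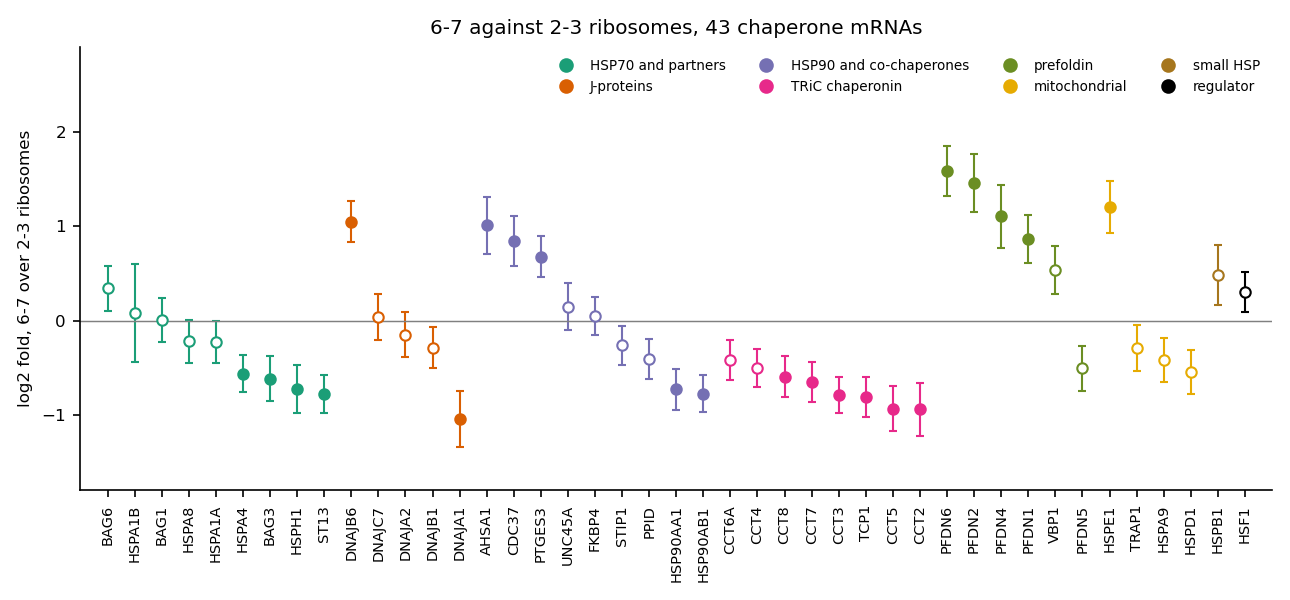
Log2 fold of 6-7 over 2-3 ribosomes (12 libraries of 3 lines), with the standard error of the fit to all gradient libraries. Symbols are filled where the adjusted p was under 0.05. All 8 TRiC members lie below 0 (-0.94 to -0.41) and 5 of 6 prefoldin members above it (0.54 to 1.59).

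HSF1 was lower at both ends of the gradient than at 3 ribosomes in each line. It stood at 157, 104 and 74.9 CPM in monosomes, at 533, 506 and 384 CPM at 3 ribosomes and at 178, 92.6 and 84.2 CPM in the 8-10 fraction. Its highest fraction was 5 ribosomes in WT (711 CPM) and 3 in S34F and FS. Other members also had their highest value at 3 ribosomes, such as PFDN5 in S34F and FS and BAG1 in WT and FS. Between 2-3 ribosomes and monosomes HSF1 was the only member called, at 1.67 ± 0.28 (adjusted p = 0.00361), where 2.96% of all genes rose and 0.176% fell. The monosome libraries are the same as in the comparison with the 8-10 fraction. That call was lost without FS (adjusted p = 0.117) and without the block (adjusted p = 0.158). Every library of 2-3 ribosomes lay above every monosome library in 2 members, AHSA1 and CCT7, and below in 0 (1.49% and 1.77% of genes). An unadjusted p under 0.05 was reached by 14 of 43 members in this comparison and by 2777 of 15945 genes. DESeq2 called 6 members, which beside HSF1 were PFDN1, PFDN4, PFDN5, PTGES3 and TCP1. Between 8-10 ribosomes and monosomes HSF1 had 0.22 ± 0.30 (adjusted p = 0.535).

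A mean position in the gradient was computed as the CPM-weighted mean of ribosome number, with 9 for the 8-10 pool, for 40 members with at least 500 counts in each gradient. Medians were 4.78 in WT, 5.36 in S34F and 4.88 in FS, against 4.76, 4.94 and 4.82 over 9501 genes. The members' median in S34F was thus 0.579 above WT and that in FS 0.108 above WT, but with TMM scaling these differences were 0.311 and -0.111. Taken gene by gene, the members' median difference from WT was 0.401 in S34F and 0.034 in FS, against 0.079 and 0.091 over all genes. The mean position is a relative index, not a number of ribosomes carried. AHSA1 had the highest middle value of the 3 lines, 6.17 (6.08 to 6.36), above 99.8% of genes, followed by PFDN2 (5.84), CDC37 (5.80) and VBP1 (5.72). The lowest were HSPH1 (4.22), PPID (4.24) and PFDN5 (4.36). S34F lay above WT in 30 of 40 members (75%), against 58.2% of all genes, and in 8 of 8 TRiC members, with a median gene-by-gene difference of 1.28. FS lay above WT in 24 of 40 members (60%), against 62.8% of all genes. HSP90AA1 (4.82, 6.57 and 5.03) and CCT2 (4.53, 6.26 and 4.54) were the members that differed most between S34F and WT. With 1 gradient per line there is no replicate check of these differences, and the S34F heavy library enters each of them. Across members the index correlated with log2 transcript length at r = -0.33 (Spearman rho = -0.18, n = 40), against r = -0.23 (rho = -0.28) over 9501 genes. The fold of 6-7 over 2-3 ribosomes correlated with it at r = -0.54 (rho = -0.34, n = 43), against r = -0.19 (rho = -0.20) over 15945 genes. Genes share the same libraries, so these are descriptions across genes.

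Between lines 1 library stood against 1 in each kind, so levels are given without a test. In the mean over the 8 fractions of the gradient, 15 of 41 members were at least 1.5-fold higher in S34F than in WT and 1 was lower, where 11.9% of all genes were higher and 10.9% lower. The S34F 8-10 library enters each of these means, and means without it were not computed. Of the higher members, CCT2 was above WT in 5 of 8 fractions, at 115 against 26.5 CPM in the 8-10 fraction. HSPH1 and CCT5 were above in 6, HSPD1 and HSPE1 in 7, and the other higher members in all 8. FS was at least 1.5-fold higher than WT in 16 of 40 members and lower in 2, against 30.8% and 14.7% of genes. HSPA8 had gradient means of 94.8, 254 and 394 CPM, so FS stood 4.16-fold above WT, and was higher in 8 of 8 fractions in both lines. Its Cytosol levels were 270, 216 and 259 CPM, which differed by less than 1.5-fold. HSP90AA1 (28.6, 76.8 and 80.8 CPM) and HSP90AB1 (148, 276 and 392 CPM) were likewise higher in both other lines than in WT over the gradient. In Cytosol HSP90AB1 stood at 557, 552 and 453 CPM. TRiC members CCT8 (24.5, 51.0 and 70.5 CPM), CCT4 (43.3, 79.3 and 114 CPM) and TCP1 (32.1, 50.9 and 91.5 CPM) had the same order, and HSPD1 stood at 21.3, 45.2 and 51.8 CPM. Of the inducible pair, HSPA1A stood at 32.3, 81.2 and 54.0 CPM and HSPA1B at 34.5, 90.6 and 50.8 CPM, both highest in S34F in 8 of 8 fractions. The isolated 0 of HSPA1B in the FS library of 3 ribosomes enters its FS mean and this count. With it, FS stood 1.47-fold above WT, just under the limit of 1.5, and a mean without it was not computed. Members past 1.5-fold in FS and not in S34F were HSPA4, ST13, DNAJA2, PTGES3, CCT3, CCT6A and HSF1, among which DNAJA2 had the largest fold (15.9, 20.3 and 37.9 CPM). PFDN2 went the other way, at 36.7, 18.4 and 14.1 CPM, lower than WT in 7 of 8 fractions in S34F and in 8 of 8 in FS. HSF1 was lower in FS than in WT, at 241 against 395 CPM. Between S34F and FS 3 members were higher and 7 lower (8.25% and 25.7% of genes), but with TMM scaling 10 were higher and 4 lower.

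Among members with a mean of at least 10 CPM, HSPB1 had the widest gap between S34F and WT in Cytosol. It stood at 162, 728 and 283 CPM there, at 292, 746 and 204 CPM in IgG, at 188, 707 and 201 CPM in IP, and at 109, 229 and 145 CPM as the gradient mean. S34F was thus higher than both other lines in each kind of library, 4.48-fold above WT in Cytosol. In IgG 13 of 37 members were at least 1.5-fold higher in S34F than in WT and 3 lower (25.6% and 36.3% of genes), 9 of 36 were higher and 11 lower in FS than in WT (25.5% and 35.5%), and 16 of 37 were higher and 3 lower in S34F than in FS (26.3% and 28.4%). In IP the counts were 8 and 5 of 40 for S34F against WT (21% and 30.6%), 5 and 3 of 38 for FS against WT (21.3% and 27.3%) and 8 and 11 of 40 for S34F against FS (26.5% and 30.8%). Over Cytosol as a whole, 6 of 41 members were at least 1.5-fold higher in S34F than in WT and 1 lower (11.6% and 13.4% of genes), and 4 of 38 were higher and 2 lower in FS (12.3% and 14.4%). Between S34F and FS 5 of 39 were higher and 4 lower (14.6% and 13.6%). The higher ones in S34F were BAG1, ST13, CCT8, PFDN5, PFDN6 and HSPB1, and the lower one was UNC45A, a myosin chaperone (220 against 140 CPM).

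The 3 comparisons among precipitates and Cytosol share their libraries. In the U2AF1 precipitate DNAJA2, a J-protein that feeds clients to HSPA8, was the only member called against IgG. By edgeR's quasi-likelihood test with Benjamini-Hochberg adjustment over 11612 genes, 1 of 43 members was higher and 0 lower, where 0.224% of genes were higher and 1.12% lower. DNAJA2 stood at 60.2, 47.4 and 45.3 CPM in IP and at 9.20, 8.28 and 1.69 CPM in IgG, a log2 fold of 2.97 ± 0.61 (adjusted p = 0.0237) with no overlap. Its Cytosol level was 38.4, 43.8 and 30.4 CPM, so IP lay near Cytosol and IgG below it. The IgG fold over Cytosol was -2.54 ± 0.60 (adjusted p = 0.081) and that of IP over Cytosol 0.43 ± 0.55 (adjusted p = 0.933). The call against IgG was lost without FS (adjusted p = 0.124), without S34F (0.062), without WT (0.129) and without the line block (0.0742).

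An unadjusted p under 0.05 against IgG was reached by 6 of 43 members and by 1497 of 11612 genes. DESeq2 called 2 members, DNAJA2 and its relative DNAJA1. DNAJA1 stood at 19.5, 14.9 and 32.3 CPM in IP and at 1.41, 12.1 and 0.338 CPM in IgG, the last of which is 1 count (2.88 ± 1.21, adjusted p = 0.319). In 8 members (18.6%) every IP library lay above every IgG library, against 9.99% of all genes, and in 0 below, against 4.23%. Beside DNAJA2 and DNAJA1 these were HSPA8, HSPH1, PTGES3, TCP1, CCT4 and CCT8. CCT8 stood at 64.5, 56.0 and 117 CPM in IP and 22.7, 31.8 and 40.1 CPM in IgG (1.15 ± 0.41, adjusted p = 0.242). TCP1 stood at 87.4, 84.0 and 44.6 CPM in IP and 19.1, 43.7 and 39.5 CPM in IgG (0.95 ± 0.45, adjusted p = 0.39). HSPA8 stood at 270, 252 and 336 CPM in IP and 210, 234 and 203 CPM in IgG (0.23 ± 0.22, adjusted p = 0.739).

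**Figure D4:**
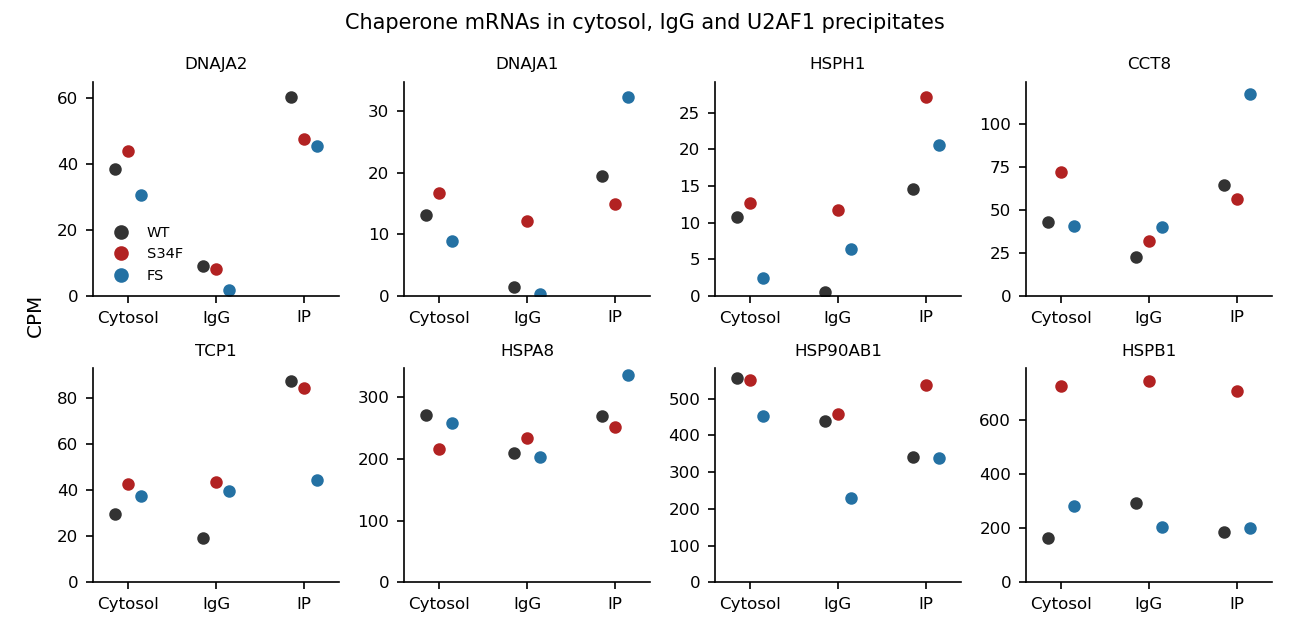
CPM of 8 members in Cytosol, IgG and IP, with 1 point per line (WT black, S34F red, FS blue) and a separate axis for each gene. DNAJA2 is low in IgG in all lines, and HSPB1 is highest in S34F in every kind of library.

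Against Cytosol 0 of 43 members were called in IP (0.491% of genes higher, 0.0431% lower) and 0 in IgG (0.663% and 0.0172%). Unadjusted p under 0.05 was reached by 7 and 4 members, and by 851 and 849 of 11612 genes. DESeq2 called 0 in IP and 1 in IgG, which was DNAJA2, lower. In IP 12 members (27.9%) had every library below every Cytosol library, against 9.02% of genes, and 3 (HSPH1, DNAJA2 and TCP1) had every library above, 7.0% against 10.1%. In IgG every library lay below every Cytosol library in 9 members (20.9%) and above in 0, against 12.8% and 5.07% of genes. The 12 members lower in IP were HSPA1A, HSPA1B, BAG1, BAG6, STIP1, CDC37, UNC45A, CCT2, CCT7, PFDN1, PFDN4 and TRAP1. BAG1 had the lowest fitted value of these, at 5.54, 15.9 and 7.17 CPM in IP and 18.0, 36.1 and 28.6 CPM in Cytosol (-1.64 ± 0.71, adjusted p = 0.646). Of 54 other chaperone and folding genes 0 were called in any of these comparisons. The biological coefficient of variation was 69.8% in these libraries, against 32.9% in the gradients.

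PAR-CLIP clusters of U2AF1 lay on most chaperone transcripts of Flp-In-293 cells. Most cytoplasmic reads of the members lay within coding exons and most chromatin reads across intron-exon borders. Replicates were pooled, so there is no replicate check, and no RNA level of these cells was used to scale the reads. Clusters lay on 30 of 43 members (69.8%) with WT protein in cytoplasm, on 28 (65.1%) with S34F protein in cytoplasm and on 33 (76.7%) with WT protein in chromatin. Of 15945 genes tested in the gradients 42.4%, 38.7% and 51.6% had a cluster. The members held 124, 118 and 441 clusters with 2810, 2335 and 34824 reads. All 8 TRiC members had clusters in all 3 lists, with 1335, 1218 and 18271 reads. No list had a cluster on 8 members: HSPA1A, HSPA1B, BAG6, DNAJC7, PFDN6, VBP1, HSPB1 and HSF1.

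**Figure D5:**
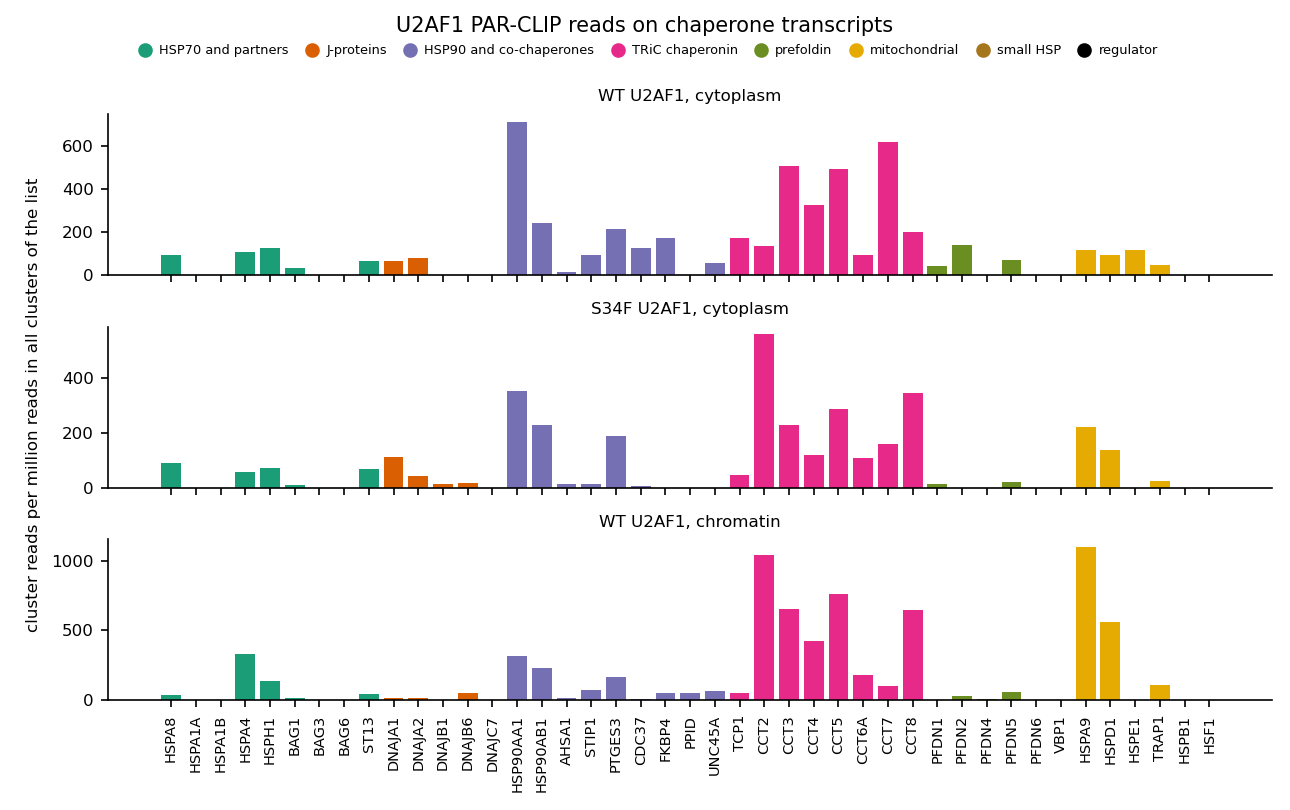
Reads in clusters on each member per 1000000 reads in all clusters of the list, for WT and S34F U2AF1 in cytoplasm and WT U2AF1 in chromatin, as bars from 0 with a separate axis per list. TRiC members and HSP90AA1 lead in cytoplasm, and HSPA9 and CCT2 lead in chromatin.

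In chromatin 61.7% of member reads lay in clusters that ran from an intron into an exon, against 3.20% and 10.3% in WT and S34F cytoplasm. By number these were 122 of 441 chromatin clusters (27.7%), where 17.7% of all chromatin clusters were of this kind, and coding clusters were more numerous (148, 33.6%). In cytoplasm coding clusters led, with 73 of 124 in WT (58.9%, against 32.5% of all clusters) and 60 of 118 in S34F (50.9%, against 26.5%). The median share of reads with a T-to-C conversion was 0.526, 0.643 and 0.972 in the member clusters of WT cytoplasm, S34F cytoplasm and chromatin, against 0.837, 0.833 and 1.0 over all clusters. In the coding clusters of members it was 0.462, 0.559 and 0.935. HSPA9 led in chromatin with 5187 reads in 31 clusters, before CCT2 (4918), CCT5 (3608), CCT3 (3077) and CCT8 (3051).

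To show the form of these contacts, 8 of the largest chromatin clusters on TRiC and mitochondrial members are printed, among those that run from an intron into a coding exon and hold a CAG or TAG. Each line gives the RNA-sense bases of a cluster, from up to 15 before to 12 after its first CAG or TAG, which is in capitals. Positions are as deposited, on a genome build that is not given in the sources used here.
HSPA9 (chr5:137893664-137893689, minus strand, 3118 reads): attatttatttTAGattggaattcca
CCT3 (chr1:156303423-156303448, minus strand, 1104 reads): atctaccttttTAGattcaagtccag
CCT5 (chr5:10262576-10262604, plus strand, 859 reads): aaagctgttttcctTAGatcattgaggag
CCT5 (chr5:10264758-10264779, plus strand, 813 reads): tatttttCAGatatgaagcaac
CCT2 (chr12:69983254-69983276, plus strand, 748 reads): gttttattTAGttccgatgaagt
CCT2 (chr12:69986738-69986767, plus strand, 740 reads): atgcttcgtttgtctTAGatatttggttcc
CCT2 (chr12:69993625-69993654, plus strand, 696 reads): atttgtttttctttgCAGatatgagggaag
HSPD1 (chr2:198359465-198359494, minus strand, 637 reads): gtaactggattatttCAGgttgctacgatt
A 3-prime splice site has a run of C and T before the AG that ends the intron. Conversions were found in 0.82 to 0.97 of their reads. Of 110 member clusters of this kind with a CAG or TAG, the first was TAG in 54 (49.1%), against 42.5% of 14156 such clusters over all genes. Bases before it were C or T in 72.7%, against 75.8% over all genes, and T in 54.9%, against 54.2%. Only the RNA strand and the first match were searched, and a match is a description of the letters.

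Such sites were also found in the cytoplasmic lists, which hold fewer reads in all. Scaled to 1000000 reads of the list, both CCT2 sites with S34F protein printed next stood at 132 and 126. Their conversion shares were 0.214 and 0.395, against a median of 0.833 over all S34F clusters. These clusters are 77 and 83 bases long, so the bases printed are only a part of them. The chromatin sites of CCT2 printed above (147 to 158) are other sites of the gene. Chromatin clusters that overlap these S34F sites held 206 and 290 reads, against 696 to 748 at the printed chromatin sites. The HSPA9 and TCP1 sites with WT protein stood at 34.2 and 32.3, with conversion shares of 0.667 and 0.529. A CCT3 cluster labelled intron, which also holds a CAG, had more reads with WT protein (45), and 55 with S34F protein. The sites printed are the largest into a coding exon for WT protein on HSPA9 and TCP1 and for S34F protein on CCT2, written in the same way.
HSPA9, WT (chr5:137894339-137894364, minus strand, 18 reads): gggtttcttcttcccTAGgtattctc
TCP1, WT (chr6:160200290-160200311, minus strand, 17 reads): attctttcttaattgCAGgatt
CCT2, S34F (chr12:69980038-69980061, plus strand, 87 reads): tttccttttCAGgcgtccctttcc
CCT2, S34F (chr12:69981697-69981721, plus strand, 83 reads): tttctttttcTAGatatgtcaaggg
Only 7 WT and 8 S34F member clusters of this kind had a CAG or TAG, of which 4 and 3 had TAG first (35.2% and 25.1% over all genes). The whole of the first CCT2 cluster runs to position 69980114 and overlaps the only WT cluster on CCT2 (chr12:69980080-69980114, 71 reads, coding). A CCT8 coding cluster was the largest S34F one on a member (146 reads), and its first such triplet is a TAG near its end.
CCT8, S34F (chr21:30433580-30433608, minus strand, 146 reads): aagaaggaaataaaaacgttggatTAGat
Its conversion share was 0.222. The largest WT cytoplasmic cluster lay in the 3-prime untranslated region of HSP90AA1 (145 reads, conversion share 0.31), and the next in the coding sequence of CCT7 (120 reads, 0.217).

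By reads per member, WT cytoplasm was led by HSP90AA1 (374), CCT7 (325), CCT3 (265), CCT5 (259) and CCT4 (170). S34F cytoplasm was led by CCT2 (367), HSP90AA1 (231), CCT8 (227), CCT5 (189) and CCT3 (151). Scaled as reads per 1000000 reads of the list, CCT2 stood at 135 with WT and 558 with S34F protein, and CCT7 at 618 and 158. On the same scale HSP90AB1 (240 and 228) and PTGES3 (213 and 188) differed less. Lists of 1 pooled sample each give no error for these differences. Of 124 WT cytoplasmic member clusters 25 overlapped an S34F cytoplasmic cluster by at least 1 base on the same strand (20.2%, against 10.2% of all WT clusters), and 24 of 118 S34F clusters overlapped a WT one (20.3%, against 9.41%). Chromatin clusters overlapped 33.1% of the WT and 36.4% of the S34F member clusters, against 18.2% and 21.3% over all genes. DNAJA2, the member called in the precipitates, had 41, 29 and 73 reads in WT cytoplasm, S34F cytoplasm and chromatin.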

How the data were processed

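As deposited, values for the gradients and precipitates are expected counts by gene symbol, of which 57.4% and 26.2% are not whole. The submitters' processing notes name TopHat, without a version. The counter, its use of strand and the build are not given in the sources used here. RPKM values that the authors deposited beside the counts were not tested. The cluster lists give, per the file headers, whole-number counts of reads and, for each cluster, the fraction of reads with T-to-C conversion.

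Entries with date-like names (28) and repeats of a symbol (45 and 119) were dropped. Counts were rounded and tested with edgeR 4.0.16 in R 4.3.3 (filterByExpr, TMM, quasi-likelihood test, adjusted p under 0.05), over 24 gradient or 9 precipitate libraries with line as a block. All 43 members passed the filter in both fits. The code was tested on simulated data. The 3 lines are the only replicates. Nothing says that libraries came from separate cultures, so p-values measure the spread between these samples only. With line as a block, level differences shared by all libraries of a line are taken out. Differences between lines in the folds remain in that spread, genotype included. Lines pair libraries by label: deviations from group means correlated at a median r of 0.346 in the gradients and 0.064 in the precipitates. CPM used library totals, and levels between lines used genes with a mean of at least 10 CPM. Transcript lengths are the authors' deposited ones. DESeq2 1.42.0 was an alternative.

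Genes given in full were the called members with the largest folds, the most abundant member of a role, those past 1.5-fold between lines and those with most cluster reads. The members and lists were chosen with earlier results of these data known.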

Additional observations from a re-analysis of the deposited data

Results flagged for a closer look

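BAG1 and PPID differed in direction between lines, which was not tested. For BAG1 both libraries of 6-7 ribosomes lay above both of 2-3 in S34F (log2 ratio of mean CPM 0.54) and below both in WT (-0.43) and FS (-0.53). For PPID they lay above in FS (0.27) and below in WT (-1.18) and S34F (-0.73). Each line has 1 gradient. Groups of 3 libraries are too small to flag a single sample.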

How the results depend on the processing

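Direction was kept in each alternative for all 55 calls on single members, of which 426 alternative values stayed called and 69 did not. DNAJA2, called in IP against IgG, gave 0 called members without the replicate block and in each fit without 1 line (0 to 0), and 2 members were called by DESeq2. For IgG against Cytosol, 1 member was lower by DESeq2, with no filter on low counts and without genes with isolated zeros. Between 6-7 and 2-3 ribosomes the lower count was 2 without the replicate block and 5 to 15 without 1 line. Between 2-3 ribosomes and monosomes the higher count was 3 with RLE scaling, 3 with no filter, 3 without isolated zeros, 3 with only the libraries compared, 6 with DESeq2, 0 without the block and 0 to 3 without 1 line. For the 8-10 fraction it was 23 to 34 over the alternatives. The index difference of FS and WT turned from 0.108 to -0.111 with TMM scaling, which gave 0.311 for S34F and WT. At 2-fold, 7 members were higher and 0 lower in S34F than in WT, 1 was lower in FS than in WT, and 0 were higher and 0 lower between S34F and FS. TMM scaling gave 10 higher and 4 lower between S34F and FS. Clusters of at least 20 reads numbered 51 on WT and 34 on S34F cytoplasmic lists, the latter on 15 members, and 69 WT clusters had a conversion fraction of at least 0.5. The cause of these shifts was not tested, and shares of all genes under these alternative settings were not computed.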
